A study of Homo sapiens with 13 samples.

Results

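In MDA-MB-231 chromatin, 533 of 19894 promoter windows of protein-coding genes (2.68%) carried the promoter mark H3K4me3 and no H3K27ac. They were chosen by position: a window of 3 kb centred on the Ensembl canonical transcription start site (TSS, GENCODE release 44 on GRCh37) was kept when it shared at least 1 bp with an H3K4me3 region and none with an H3K27ac region. Values of these lists are therefore given as descriptions. The other windows served for comparison, namely 11939 with both marks, 7143 with neither and 279 with H3K27ac alone. With the terms of the study for candidate active and inactive promoters, the 533 windows are called H3K4me3-positive cIPs, the windows with both marks H3K4me3-positive cAPs and those with neither mark H3K4me3-negative cIPs.

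MDA-MB-231 is an established human breast cancer line of the triple-negative, basal B type, and all samples came from this line, grown in serum-containing medium with no treatment named. The ChIP-seq samples are grouped by antibody: 2 libraries for each of H3K4me1, H3K27ac, H3K4me3, CTCF and RNA polymerase II (Pol II), and a single one, from pooled immunoprecipitations, for p300/CBP. For each antibody the data are 1 list of region positions made after the replicates had been merged, with no value per region. A mark is called absent where its list had no region, so signal below the cut-off of the authors is not seen. That cut-off was 30 for H3K4me3 and 50 for H3K27ac and Pol II. The part of these cut-offs in the values below was not tested. Depth is thus unknown, replicates cannot be compared, no test was made, and the 95% intervals given (Wilson for a share, Newcombe for a difference) cover counting error over windows only.

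Trimethylation of H3 at K4 is laid down around start sites by SET1 and MLL complexes, which are drawn to unmethylated CpG islands, and acetylation of H3 at K27 is the work of the p300 and CBP acetyltransferases at active promoters and enhancers. At most active promoters the marks occur together, with Pol II over the start site and H3K4me1 on the flanks. H3K4me3 without acetylation is known from CpG-rich promoters of silent developmental genes, where it can sit beside the Polycomb mark H3K27me3. That mark and RNA were not analysed here.

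The sequences below show the range of promoters in the group. They run from 250 bases before to 49 bases after the TSS on the sense strand of GRCh37, with CG dinucleotides in capitals. RSAD2, which encodes the interferon-induced antiviral protein viperin (chr2:7017658-7017957, plus strand), and HLA-DPB1, a class II antigen-presenting chain (chr6:33043517-33043816, plus strand), had the lowest CpG ratios among H3K4me3-positive cIPs with H3K4me3 over the TSS, leaving out genes with the symbol of a clone or open reading frame.
RSAD2: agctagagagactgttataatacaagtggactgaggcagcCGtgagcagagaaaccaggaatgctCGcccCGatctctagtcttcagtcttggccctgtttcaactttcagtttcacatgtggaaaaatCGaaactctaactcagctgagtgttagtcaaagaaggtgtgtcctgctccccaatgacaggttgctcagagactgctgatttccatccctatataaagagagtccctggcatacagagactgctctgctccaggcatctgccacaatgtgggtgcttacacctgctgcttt
HLA-DPB1: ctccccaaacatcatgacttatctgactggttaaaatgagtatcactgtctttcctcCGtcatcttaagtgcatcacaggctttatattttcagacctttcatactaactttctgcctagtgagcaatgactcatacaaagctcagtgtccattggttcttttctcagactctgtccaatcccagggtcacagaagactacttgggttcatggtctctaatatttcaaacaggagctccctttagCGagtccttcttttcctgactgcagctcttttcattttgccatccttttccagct
SOWAHA (chr5:132148744-132149043, plus strand) and EBF3, a transcription factor of B cell and neuronal development (chr10:131762489-131762788, minus strand), had the highest.
SOWAHA: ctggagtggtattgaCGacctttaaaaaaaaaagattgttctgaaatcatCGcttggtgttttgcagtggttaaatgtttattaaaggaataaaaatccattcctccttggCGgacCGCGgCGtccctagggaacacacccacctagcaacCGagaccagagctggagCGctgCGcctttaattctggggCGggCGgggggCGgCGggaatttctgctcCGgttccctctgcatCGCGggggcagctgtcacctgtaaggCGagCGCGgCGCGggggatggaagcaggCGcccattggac
EBF3: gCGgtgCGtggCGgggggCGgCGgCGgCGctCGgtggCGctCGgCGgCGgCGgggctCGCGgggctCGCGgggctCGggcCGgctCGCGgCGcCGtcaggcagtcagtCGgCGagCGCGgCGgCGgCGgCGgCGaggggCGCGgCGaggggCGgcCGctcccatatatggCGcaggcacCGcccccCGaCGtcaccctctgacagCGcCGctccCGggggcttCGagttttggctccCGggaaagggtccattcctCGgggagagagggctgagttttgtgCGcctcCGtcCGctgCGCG
MKX, a homeobox factor of tendon (chr10:28034699-28034998, minus strand), had the widest H3K4me3 region among the developmental factors described below.
MKX: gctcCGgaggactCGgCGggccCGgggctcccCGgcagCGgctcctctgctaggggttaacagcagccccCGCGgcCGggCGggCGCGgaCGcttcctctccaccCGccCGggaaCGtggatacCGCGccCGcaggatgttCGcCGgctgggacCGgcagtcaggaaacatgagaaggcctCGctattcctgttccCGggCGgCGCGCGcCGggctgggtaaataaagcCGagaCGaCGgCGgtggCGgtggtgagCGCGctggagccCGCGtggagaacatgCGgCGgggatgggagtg
The stretches of RSAD2 and HLA-DPB1 held 4 and 2 CG dinucleotides, against 22 in SOWAHA, 52 in EBF3 and 40 in MKX. Over 1 kb centred on the TSS, the ratio of observed to expected CpG was 0.17 for RSAD2 and 0.19 for HLA-DPB1, and 1.02 and 1.04 for SOWAHA and EBF3. With both strands searched, the letters TATAAA of the TATA box were found in both CpG-poor stretches and in none of the other 3. The match was on the sense strand in RSAD2 and on the opposite strand only in HLA-DPB1. The GC box (GGGCGG) was found in those other 3 stretches and in neither CpG-poor one. The H3K4me3 region at RSAD2 was 950 bp wide, and the nearest H3K27ac region lay 934 kb from its TSS. At EBF3 the region was 1500 bp wide and H3K27ac was 145 kb away. No Pol II region lay in any of the 5 windows.

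The H3K4me3 regions of the group were narrow, and they were often off the TSS. The median width of the widest region in a window was 650 bp (quartiles 350 and 1000 bp), against 2300 bp (1650 and 3050 bp) at H3K4me3-positive cAPs. The TSS itself was under H3K4me3 in 252 of the 533 windows (47.3%), against 84.9% of cAPs. In 115 windows the mark lay upstream of the TSS only, in 142 downstream only and in 24 on both sides. Regions over the TSS had a median width of 950 bp and those elsewhere one of 450 bp. Of the 281 windows with the TSS outside H3K4me3, 54 (19.2%) had a mark that covered another annotated start, either of another protein-coding gene or of a lncRNA, or another start of the same gene.

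The nearest H3K27ac region lay a median of 36.2 kb from the TSS (quartiles 13.1 and 88.5 kb). It was within 5 kb for 56 windows, within 10 kb for 105, and over 50 kb away for 221. The windows closest to the limit were those of OSCAR, DLL4 and HSPB9, which ended 7, 13 and 21 bp from an H3K27ac region. On the other side, GGT7, ENSG00000284934 and COL11A1 had H3K4me3 and only 8, 20 and 23 bp of their windows under H3K27ac, and so were not included. Pol II was found in 6 of the 22 windows of the group with H3K27ac within 500 bp of the window, and in 210 of the 470 cAPs with at most 500 bp of the window under H3K27ac. In 19 of the 533 windows the H3K4me3 region itself shared bases with an H3K27ac region outside the window.

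Pol II was found at few of these promoters. A Pol II region lay in 45 of the 533 windows, or 8.44% (6.37% to 11.1%), where 58.4% of all windows had one. The share was 93.7% at H3K4me3-positive cAPs, higher by 85.2 points (82.5 to 87.4), and 4.62% at H3K4me3-negative cIPs, a difference of 3.82 points (1.69 to 6.53). Over the TSS base, Pol II was present at 5.44% of the group, 83.2% of cAPs and 2.69% of the windows with neither mark. Where a Pol II region was present in the group, its median width was 300 bp, against 1100 bp at cAPs and 2480 bp in windows with neither mark. When all promoters were classed anew by windows of 1 kb, the group was a different set of 579 windows. Its share was 14.9% (12.2% to 18.0%), a difference of -78.6 points from cAPs and of 10.6 points (7.94 to 13.8) from windows with neither mark, in classes likewise drawn anew.

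**Figure D1:**
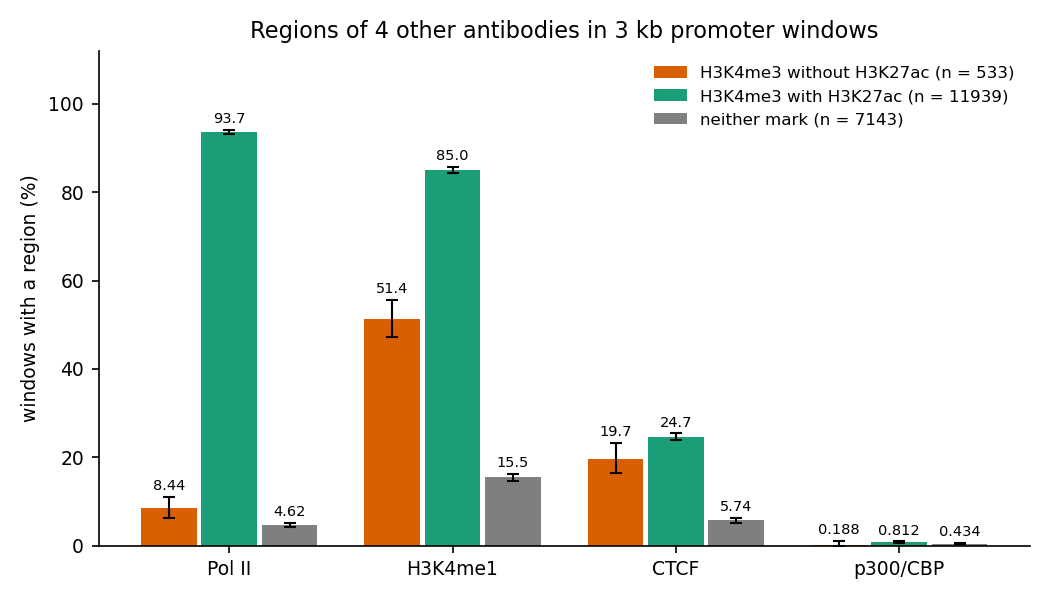
Share of promoter windows (%, y axis) with a region of each antibody (x axis) in the 3 classes, with 95% Wilson intervals as error bars. Pol II was found in 8.44% of windows with H3K4me3 without H3K27ac and 93.7% of those with both marks, while for CTCF the shares were 19.7% and 24.7%.

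The difference in Pol II was also present between windows with H3K4me3 regions of like width. Among windows with a region of at most 500 bp, Pol II was present in 18 of 222 (8.11%) without H3K27ac and in 74 of 160 (46.2%) with it, a difference of -38.1 points (-46.4 to -29.4). For widths over 500 and up to 1000 bp the shares were 7.78% and 67.7%. For over 1000 and up to 1500 bp they were 12% and 86.5%, and for over 1500 and up to 2000 bp 5.88% and 94.1%. Among the widest, over 2000 bp, 1 of 14 windows without H3K27ac had Pol II (7.14%, 1.27% to 31.5%) and 98.6% of those with it. At cAPs the share rose from bin to bin of width, whereas the shares of the group had overlapping intervals in all 5 bins. Averaged over these bins with the weights of the group, the difference from cAPs was -55.7 points, against -85.2 points without regard to width.

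**Figure D2:**
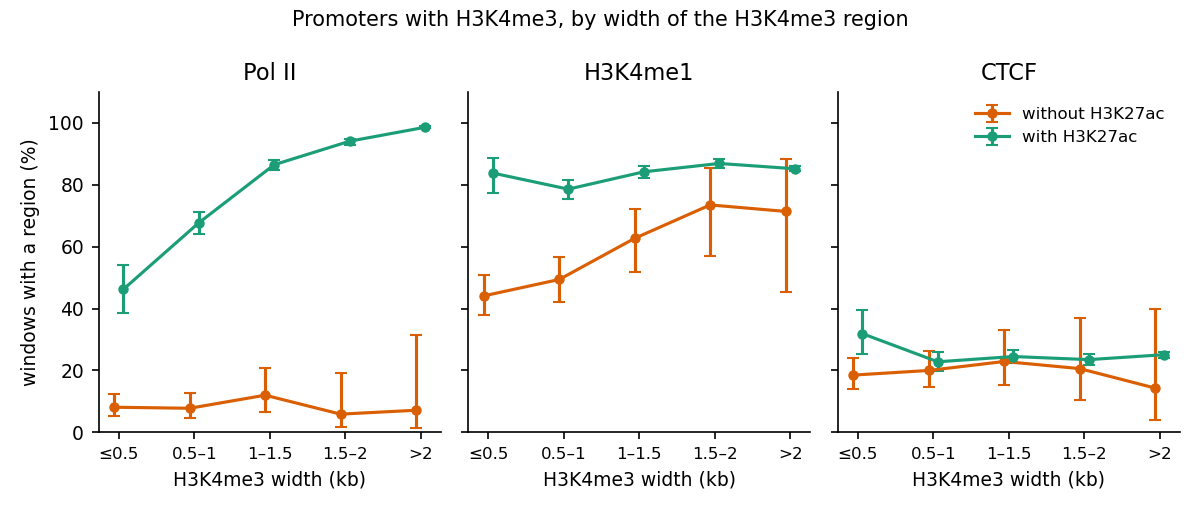
Share of windows (%, y axis) with a Pol II, H3K4me1 or CTCF region by width of the widest H3K4me3 region (kb, x axis), for windows without H3K27ac and with it, with 95% Wilson intervals. The Pol II share lay between 5.88% and 12% at every width without H3K27ac and between 46.2% and 98.6% with it.

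H3K4me1, the mark of enhancers and promoter flanks, was placed differently in the group. An H3K4me1 region was found in 274 windows, or 51.4% (47.2% to 55.6%), against 59.3% of all windows, 85.0% of cAPs and 15.5% of windows with neither mark. Over the TSS base the order of the first 2 classes was reversed. There, 116 promoters of the group (21.8%) were under H3K4me1, against 7.91% of cAPs and 5.75% of windows with neither mark, so that the group exceeded cAPs by 13.9 points (10.5 to 17.6). Along the gene, H3K4me1 at cAPs dropped to its low at the TSS and covered most promoters, 57.1%, at 1700 bp downstream. In the group the list showed no such gap, with 17.3% of promoters covered at 1 kb upstream, 21.8% at the TSS and 21.0% at 1 kb downstream. The highest share, 25%, was at -600 bp. H3K4me1 runs up to 1000 bp apart were merged in the list, so a gap of that length or less cannot be seen. H3K4me3 regions had a median width of 650 bp in the group and 2300 bp at cAPs. They covered the TSS in 47.3% and 84.9% of windows. The part of merging, width and position in this contrast was not tested. With all promoters classed anew by windows of 1 kb in place of 3 kb, H3K4me1 was likewise the more frequent in the resulting group. It was at 37.7% there, 10.2 points above the cAPs of that setting (6.26 to 14.3). The H3K4me3 list is part of the rule, so the following is a description: the H3K4me3 region shared bases with an H3K4me1 region in 232 of the 533 windows (43.5%) and in 87.4% of cAPs, but H3K4me1 covered 33% of the H3K4me3 bases in the group and 27% at cAPs.

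**Figure D3:**
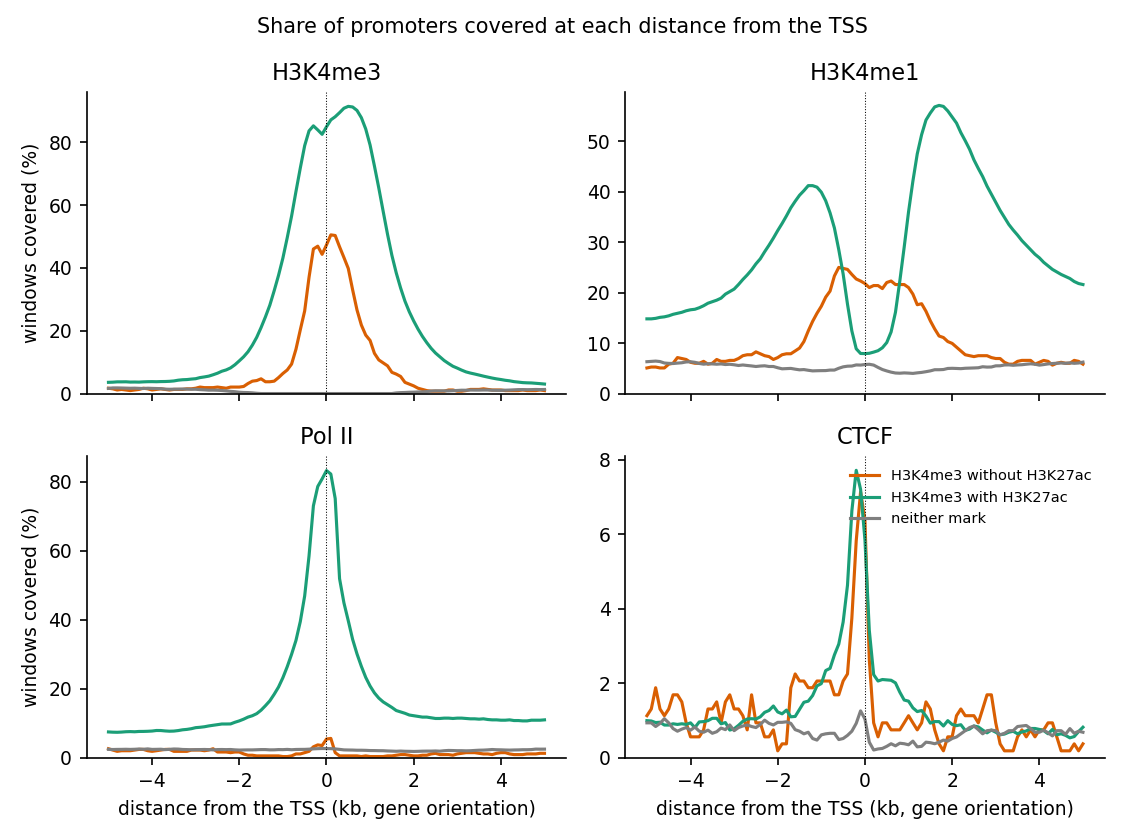
Share of promoters (%, y axis, a scale of its own in each panel) covered by H3K4me3, H3K4me1, Pol II and CTCF regions at each distance from the TSS (kb, x axis, in the direction of the gene), for the 3 classes. H3K4me1 covered 21.8% of H3K4me3-positive cIPs at the TSS, where cAPs had their lowest values (7.91% at the TSS), and CTCF covered like shares of both just upstream of the TSS.

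CTCF, an architectural protein that bounds chromatin loops, was less frequent than at cAPs and more frequent than in windows with neither mark. It was present in 105 of the 533 windows, or 19.7% (16.5% to 23.3%), against 17.6% of all windows, 24.7% of cAPs and 5.74% of windows with neither mark. The difference from cAPs was -4.95 points (-8.20 to -1.28), and that from windows with neither mark was 14.0 points (10.8 to 17.6). Over the TSS base CTCF was found at 6.38% of the group and 5.85% of cAPs, a difference of 0.524 points with an interval from -1.31 to 2.96. In each bin of H3K4me3 width over 500 bp the interval of the difference from cAPs included 0, and for widths of at most 500 bp the shares were 18.5% and 31.9% (-13.4 points, -22.2 to -4.64). Averaged over these bins with the weights of the group, the difference was -7.25 points. The CTCF region shared bases with the H3K4me3 region in 78 of the 105 windows (74.3%), against 90.9% of the cAPs with CTCF.

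p300/CBP was found in 1 of the 533 windows, or 0.188% (0.0331% to 1.05%), that of TAF11L5. All promoters had few such regions, with 0.769% of all windows, 0.812% of cAPs and 0.434% of windows with neither mark, and the intervals of both differences included 0 (-0.860 to 0.255 points from cAPs and -0.485 to 0.630 points from neither). The difference from cAPs was -0.811 points (-0.989 to -0.0477) without windows of low uniqueness, as defined below, and -3.75 points (-7.94 to -1.11) for H3K4me3 widths of at most 500 bp, and these intervals did not include 0. Only 2.09% of the words of 31 bases in the TAF11L5 window occur once in the reference, so few reads can be placed there uniquely. The part of this in the single region was not tested.

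Taking the 4 lists at once, 198 of the H3K4me3-positive cIPs (37.1%) had none of the other regions, against 1.05% of cAPs and 77.9% of windows with neither mark. A further 194 (36.4%) had H3K4me1 alone, 58 had H3K4me1 with CTCF and 37 had CTCF alone. Pol II was alone in 19 windows and accompanied by H3K4me1 in 16, by CTCF in 4 and by both in 6. At cAPs the most frequent set was Pol II with H3K4me1 (60.3%).

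In CpG content these promoters lay closer to active ones than to those with neither mark. A promoter was called CpG-dense when a stretch of 500 bp within 500 bp of the TSS on either side had a CpG ratio over 0.75 and a GC content over 55%, and CpG-poor when none reached a ratio of 0.48. Of the 533 promoters, 399 were CpG-dense (74.9%, 71.0% to 78.4%), against 63.3% of all promoters with sequence, 85.5% of cAPs and 27.1% of H3K4me3-negative cIPs. The difference was -10.7 points (-14.6 to -7.10) from cAPs and 47.7 points (43.8 to 51.4) from windows with neither mark. CpG-poor promoters made up 7.88% of the group (42 promoters), 3.79% of cAPs and 54.5% of windows with neither mark. The median CpG ratio was 0.753 in the group, 0.791 at cAPs and 0.321 in windows with neither mark, and the median GC contents were 65.4%, 63.9% and 54.3%. Within CpG-dense promoters the Pol II shares stayed as far apart as before, at 9.27% in the group and 94.4% at cAPs.

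**Figure D4:**
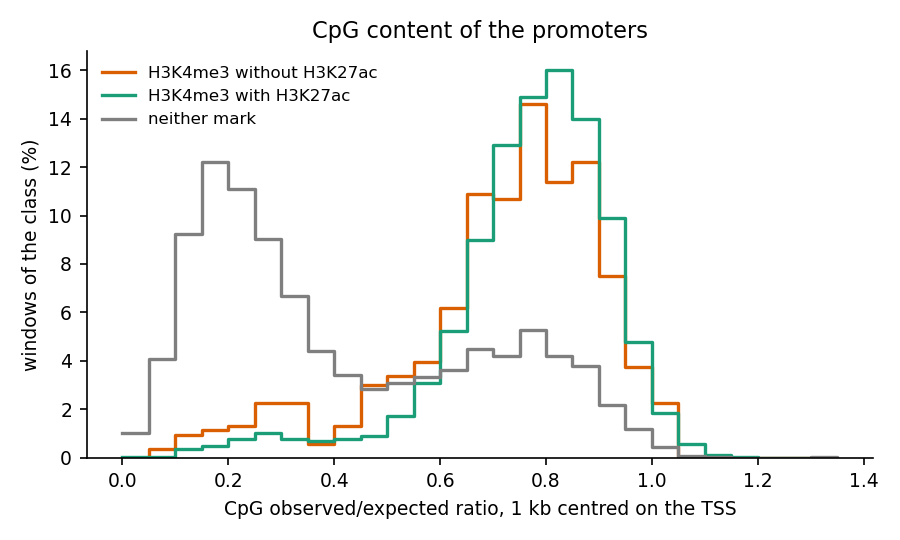
Distribution of the CpG observed/expected ratio over 1 kb centred on the TSS (x axis, bins of 0.05) in the 3 classes, as the share of the windows of each class (%, y axis). Windows with H3K4me3, without H3K27ac (median 0.753) or with it (median 0.791), lay mainly at high ratios, and windows with neither mark had a median of 0.321.

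Of 9 motifs of common promoter factors, 4 had lower shares in the group than at cAPs, with intervals that did not overlap within CpG-dense promoters, and 5 had intervals that overlapped. Motifs were searched as exact letters on both strands from 250 bases before to 49 after the TSS, and a match is not a bound site. The GC box (GGGCGG), bound by SP factors, was found in 75.8% of the group, 76.6% of cAPs and 61.4% of all promoters. The ETS motif (CCGGAAG) was found in 6.0% of the group (4.28% to 8.35%), 21.1% of cAPs and 14.1% of all promoters. Within CpG-dense promoters alone its shares were 6.52% (4.49% to 9.38%) in the group and 22.1% (21.3% to 22.9%) at cAPs. The YY1 motif (AAGATGGCG) was found in 0.752% and 4.66% of the CpG-dense promoters of both classes, and in 3.86% of all CpG-dense promoters. For the NRF1 motif (GCATGCG) these shares were 3.26%, 7.64% and 6.86%, and for the CCAAT box (CCAAT), bound by NF-Y, 25.6%, 36.2% and 34.8%. These were the 4 motifs without overlap. The intervals overlapped for the GC box, at 84.7% and 80.8% of the CpG-dense promoters of both classes and 80.6% of all CpG-dense ones. In the same order the E-box (CACGTG) had 7.77%, 10.8% and 10.5%, with overlap as well. So did the CRE (TGACGTCA), at 3.01%, 3.88% and 3.58%, and the AP-1 motif (TGANTCA), at 3.01%, 2.97% and 2.95%. The TATA box (TATAAA) was found in 5.26% and 3.84% of CpG-dense promoters, also with overlapping intervals, and in 4.53% of all CpG-dense promoters. In windows with neither mark, of any CpG content, the ETS, NRF1 and YY1 motifs had shares of 3.57%, 2.25% and 0.252%. None of these exceeded the share of the whole group, so low shares of these motifs were not particular to it. The CCAAT box was found in 35.3% of windows with neither mark and 30.2% of the group. Shares within CpG-dense promoters were not taken for windows with neither mark.

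Gene lists were read against the 2.68% of all windows that met the rule. For homeobox genes, ligands and receptors of development and ion channels the interval of the share lay above this value. These lists held many windows with neither mark, namely 136 of 199, 56 of 100 and 186 of 257. Among all windows 7143 of 19894 had neither mark. The part of this in the higher shares was not tested. Of 199 homeobox genes, which pattern the body axis and the nervous system, 12 were H3K4me3-positive cIPs (6.03%, 3.48% to 10.2%), while 50 had both marks and 136 neither. Of 186 other developmental factors, 8 belonged to the group (4.30%, 2.20% to 8.26%), with an interval that included the share of all windows. Of 100 ligands, receptors and antagonists of the WNT, BMP, FGF, Hedgehog and TGF-beta pathways, 6 did (6.0%, 2.78% to 12.5%). The last count was 3 with windows of 1 kb or with no H3K27ac within 5 kb of the TSS, and 1 when the TSS base had to be under H3K4me3, where the homeobox count was 4 and that of the other factors 4. Ion channel subunits had 13 of 257 (5.06%, 2.98% to 8.46%), axon guidance and synaptic adhesion genes 6 of 104 (5.77%, 2.67% to 12%) and clustered protocadherins 3 of 51 (5.88%, 2.02% to 15.9%).

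**Figure D5:**
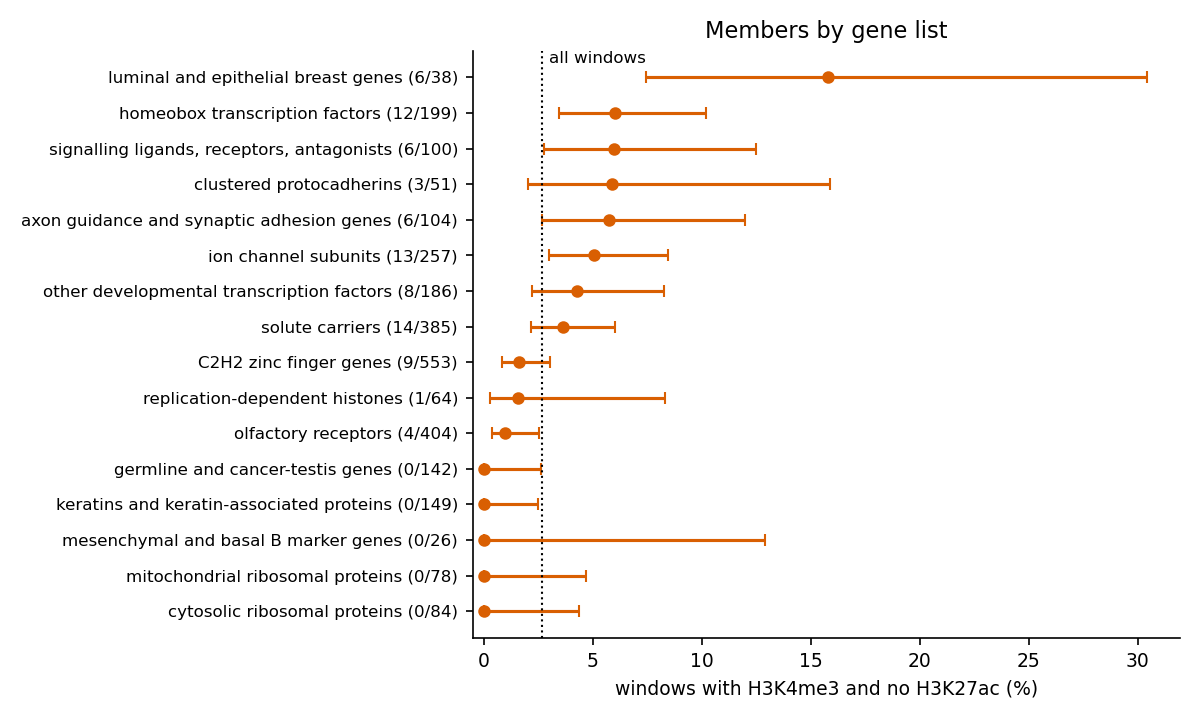
Share of the windows of each gene list that had H3K4me3 and no H3K27ac (%, x axis), with 95% Wilson intervals, and with the counts beside each list (y axis). The dotted line marks the 2.68% of all windows, and the interval of the luminal and epithelial list lay wholly above it, from 7.44% to 30.4%.

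Among the homeobox genes, DLX2, a factor of forebrain neurons, was the only one with Pol II, in a region of 350 bp over the TSS, together with CTCF. Its nearest H3K27ac region was 2.83 kb away. At MKX the mark was 2850 bp wide but lay from 948 to 3797 bp downstream of the TSS, and H3K27ac was 1.65 kb away. At ONECUT2, LMX1B, POU3F1, GSX1 and GSX2 the H3K4me3 region ended upstream of the TSS, and at LHX6 and SIX3 it covered it. In all, the mark lay off the TSS in 8 of the 12 genes, where it did so in 281 of the 533 windows of the group.

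The other developmental factors were all CpG-dense, 8 of 8, where 74.9% of the group and 63.3% of all promoters with sequence were. OLIG1, a factor of oligodendrocytes, had 2350 bp of H3K4me3 over the TSS, H3K27ac at 26.7 kb and no Pol II. TFAP2E, an AP-2 factor, had a Pol II region of 150 bp over the TSS. The mark covered the TSS of HAND1, a heart factor, and of EOMES, a T-box factor, in regions of 600 and 200 bp. At SOX21, FOXN4, ASCL2 and NEUROG2, which act mainly in neural and progenitor cells, it lay beside the TSS, and no Pol II region was found.

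All 6 genes of the signalling list had H3K4me1 in the window and none had Pol II, where the whole group had 51.4% and 8.44%. SHH, the Hedgehog ligand of limb and neural tube, had 2350 bp of H3K4me3 from 607 to 2956 bp downstream of the TSS, H3K4me1 over the TSS in a region of 3550 bp, and H3K27ac at 3.04 kb. DHH and WNT5B, both with the mark downstream in regions of 1450 bp, were not CpG-dense. BMP6 was the one gene of the list with H3K4me3 over the TSS, in 900 bp, and had a CpG ratio of 1.01. At WNT10A and WNT4 the mark lay upstream, in 700 and 250 bp.

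Luminal and epithelial breast genes had the highest share of the 16 lists, with 6 of 38 in the group (15.8%, 7.44% to 30.4%). Among these were OVOL2 and GRHL1, which maintain the epithelial state, ESRP1, an epithelial splicing regulator, MARVELD2, a tricellular junction protein, and the progesterone receptor PGR. The count of 6 was 5 with windows of 1 kb and 2 when the TSS base had to be under H3K4me3. It was 1 with H3K4me3 regions of at least the median width of the list. H3K4me3 covered the TSS of OVOL2 in a region of 1650 bp and that of PGR in 700 bp, with H3K27ac at 61.7 and 200 kb. Pol II was found at GRHL1 only, in a region of 150 bp that did not reach the TSS. Of the other luminal genes, 13 had both marks, among them KRT8, KRT18 and FOXA1, 14 had neither, among them ESR1, GATA3 and CDH1, and 5 had H3K27ac alone. By contrast, 25 of 26 mesenchymal and basal B genes, such as VIM, CD44 and FOSL1, had both marks and 0 belonged to the group (upper limit 12.9%).

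The other lists had shares near that of all windows, or fewer, or no gene in the group. Cytosolic ribosomal proteins had 0 of 84 (upper limit 4.37%), with 81 in cAPs, and mitochondrial ones 0 of 78 (4.69%), all in cAPs. Germline and cancer-testis genes had 0 of 142 (2.63%) and keratins with their associated proteins 0 of 149 (2.51%), of which 128 and 132 had neither mark. Olfactory receptors had 4 of 404 (0.990%). C2H2 zinc finger genes had 9 of 553 (1.63%) and solute carriers 14 of 385 (3.64%). Of the histones, H2BC10 alone (1 of 64, 1.56%) had the mark without H3K27ac, from 942 to 1491 bp downstream. The protocadherins were PCDHAC1, PCDHB10 and PCDHGA1, with regions of 550, 300 and 300 bp, and a CTCF region lay in the windows of the first 2.

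The promoters with the widest H3K4me3 over the TSS mostly lacked Pol II, as did the whole group, where 8.44% had it. DLL4, a Notch ligand of endothelial cells, had 3700 bp (chr15:41219751-41223451), from -1787 to 1912 bp around the TSS, with Pol II, CTCF and H3K4me1 in the window. Its nearest H3K27ac region was 1.51 kb from the TSS, just past the window. CADM1, a cell adhesion molecule, followed with 2450 bp (chr11:115373351-115375801), H3K4me1 and no Pol II, and its nearest H3K27ac region was 277 kb away. FHDC1 had 2300 bp and KCNN3, a calcium-activated potassium channel, 2200 bp, at a promoter that H3K4me1 covered in a region of 5400 bp. MCTP1 had 2100 bp and H3K27ac at another of its 5 start sites. NAP1L3 and FAM133A, divergent genes of chromosome X, shared a region of 2050 bp that lay over 1380 kb from any H3K27ac region. GGTA1 and LRIG1, the latter a negative regulator of receptor tyrosine kinases, had 2000 bp each. Of these 10 promoters, counted with OLIG1, Pol II was found at DLL4 alone.

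The Pol II regions over the TSS of the group ranged widely in length. LRRC24 lay wholly under a Pol II region of 11950 bp, and its H3K4me3 region, from -2633 to -1234 bp, covered the TSS of another protein-coding gene. HSPB9, a small heat shock protein, lay under 2900 bp of Pol II with H3K4me3 from -2271 to -1472 bp. GCHFR, the feedback regulator of GTP cyclohydrolase, had 1400 bp of Pol II and 900 bp of H3K4me3, both over the TSS, and SNX22 had 800 and 850 bp. The others, namely B3GNT9, RCN3, TESMIN, ZNF577, ICOSLG and CD33, had Pol II regions of 1050 to 400 bp. Pol II, CTCF and H3K4me1 were all present at DLL4, DISP3, PLPP6, DLX2, ADAMTS17 and FGFR4. In these 6 windows Pol II covered the TSS in regions of 200 to 350 bp. All 6 were CpG-dense, where 74.9% of the group were.

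The genes of the group were long and, like those with neither mark, lay farther than cAPs from other promoters with both marks. Their median length was 50.6 kb (quartiles 13.7 and 137 kb), against 33.8 kb for cAPs and 16.7 kb for windows with neither mark. The nearest other TSS with both marks was a median of 93.5 kb away, against 31.1 kb for cAPs and 87.5 kb for windows with neither mark. This distance rests on both lists of the rule, which kept windows that reached H3K27ac out of the group. It is therefore given as a description. Pol II was found somewhere over the gene for 155 of the 533 (29.1%), against 93.0% of cAP genes and 17.8% of those with neither mark. In 37 genes H3K27ac was present at another annotated start. Of these, 81.1% had Pol II somewhere over the gene, against 25.2% of the other 496, a difference of 55.9 points (40.1 to 66.0), whereas at the canonical TSS window the shares were 5.41% and 8.67%. The 37 genes had a median length of 102 kb and the 496 one of 48.7 kb, and the 496 include all genes with a single start. The split uses a list of the rule, and the other start lies within the gene, so Pol II at that start was counted. The parts of length and of Pol II at the acetylated start in the difference were not tested.

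Several of these windows are not independent of each other or of what reads can reach. The 533 windows held 548 distinct H3K4me3 regions, 34 shared a region with another of the group, and 43 overlapped the window of another protein-coding gene. In 24 windows (4.50%) fewer than 50% of the words of 31 bases were unique in the reference, against 0.838% of cAPs and 8.32% of windows with neither mark. Without windows of this kind 509 remained in the group, and the Pol II share was 7.86% (5.82% to 10.5%).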

How the data were processed

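ChIP-seq was performed in MDA-MB-231 cells, and samples were grouped by antibody as labelled. According to the methods the reads were aligned to hg19 with BWA-backtrack, while the submitters' processing notes name Bowtie2. The authors computed the signal with PASHA (bins of 50 bp) and pooled both replicates, and regions were the runs of bins above a cut-off in the Integrated Genome Browser. On the signal of each list the cut-off was 50 for H3K27ac, Pol II and CTCF, 30 for the methylation marks and 60 for p300/CBP. The labels of the lists name scaling and background subtraction for the histone marks and p300/CBP. They name scaling alone for Pol II and neither for CTCF, so the cut-offs may not share a scale. Runs separated by no more than 1000 bp (H3K4me1), 800 bp (Pol II), 500 bp (H3K4me3, H3K27ac) or 50 bp (CTCF, p300/CBP) were merged. The deposited lists hold positions in bp and no signal, count or score. Those of p300/CBP, Pol II and CTCF hold 13984, 26065 and 39596 regions. The study reports fewer peaks for each of these 3, most of all for p300/CBP, and the reason is not known. Coordinates are all multiples of 50 plus 1, and the listed end was read as the first base past the region. No column was left unmapped, and the 2 inputs were not used here.

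Chromosome lengths were checked against GRCh37. Overlap meant 1 bp. The widest H3K4me3 region of a window gave its width. Analyses used Python 3.11.15, NumPy 2.4.6, SciPy 1.17.1 and matplotlib 3.10.9. Overlaps and intervals were tested on simulated data, with 0 wrong of 4000 and 0 of 400 comparisons. Genes were named by rule: up to 10 per list of the homeobox, developmental, signalling, luminal, mesenchymal, histone and protocadherin genes by H3K4me3 width, the 10 widest H3K4me3 and Pol II regions over the TSS, windows with p300/CBP or with Pol II, CTCF and H3K4me1, and the windows nearest the H3K27ac limit. The rule for the group and the gene lists were chosen with earlier results of these data known. Alternatives changed the window, the overlap, the H3K4me3 and H3K27ac criteria, the CpG threshold and the start sites used. The motif shares within CpG-dense promoters and the bins of H3K4me3 width were added after the data had been seen. Some genes and 1 promoter sequence that these rules name are not reported here.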

Additional observations from a re-analysis of the deposited data

How the results depend on the processing

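Of 185 values under alternative settings for 18 results, 138 stayed within the interval of the reported value (a count within 1.5 times). The group had 579 windows with a window of 1 kb, 252 when the TSS base had to be under H3K4me3 and 108 with wide H3K4me3 regions only (at least the median of the list). Genes of the lists then numbered 76, 38 and 22, against 82. The direction turned in 3 cases. H3K4me1 was more frequent than at cAPs by 10.2 points within 1 kb and by 13.9 points over the TSS base, and CTCF by 0.524 points over the TSS base, with an interval that included 0.

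Within 1 kb the shares were 14.9% for Pol II, 37.7% for H3K4me1, 12.8% for CTCF, 0 for p300/CBP and 79.4% for CpG-dense promoters, the median CpG ratio was 0.770 and the median width 750 bp. The differences were then -78.6 points from cAPs and 10.6 points from windows with neither mark for Pol II, and 26.5 and 10.2 points from the latter for H3K4me1 and CTCF. With the TSS base under H3K4me3 they were 56% for H3K4me1 and 0 for p300/CBP, with a ratio of 0.728, a width of 950 bp and, by construction, 100% of TSSs under the mark. With wide H3K4me3 regions they were 11.1% for Pol II, 68.5% for H3K4me1, 0 for p300/CBP, 78.7% for CpG-dense promoters and 78.7% for the TSS under the mark, the width was 1500 bp, and the H3K4me1 differences were -17.0 points from cAPs and 51.3 points from neither. Over the TSS base the shares were 5.44%, 21.8%, 6.38% and 0 for Pol II, H3K4me1, CTCF and p300/CBP. Differences there were -77.7 points from cAPs for Pol II, and 16.0 and 5.34 points from neither for H3K4me1 and CTCF. With 50% of the region in the window H3K4me1 was at 45.0% and -8.92 points from cAPs, and Pol II at -76.2 points. Within quartiles and bins of H3K4me3 width the Pol II difference was -73.2 and -55.7 points, and that of p300/CBP in bins -1.77 points. Within CpG-dense promoters H3K4me1 exceeded windows with neither mark by 40.5 points. With a CpG ratio over 0.6 and GC over 50%, 86.9% were CpG-dense. In windows with at least 50% unique words p300/CBP was at 0. The cause of these shifts was not tested. The last setting and the width bins were chosen after seeing the data.

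No paired analysis was possible because each antibody has a single list for both replicates. Leaving out a library or raising the peak threshold was likewise not possible from lists without values, and what depth limits is unknown.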

Other observations

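The genes below were named after their values had been seen. In the whole group 47.3% of windows had H3K4me3 over the TSS and 8.44% had Pol II. Of the 14 solute carriers, which move small molecules across membranes, 10 had H3K4me3 over the TSS, among them SLC40A1, the iron exporter ferroportin (650 bp), SLC7A8, an amino acid transporter (1250 bp), and SLC12A7, a potassium chloride cotransporter (1200 bp). None of the 14 had Pol II in the window and 6 had H3K4me1. Of the 13 ion channel genes, 5 had the mark over the TSS, among them KCNN2 (1450 bp), TRPC6 (1450 bp) and KCNK2 (1100 bp). It lay upstream at KCND2, KCNH3, KCNH8, KCNJ5 and CACNA1G, and none of the 13 had Pol II. Of the 9 C2H2 zinc finger genes, 8 had the mark over the TSS, 3 had Pol II (ZFP2, ZNF577 and ZNF813) and 1 had H3K4me1 (ZNF423).

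The sequence under H3K4me3 was compared with that of the TSS. In windows with the TSS outside H3K4me3, the part of the widest region inside the window had a median CpG ratio of 0.677, and the 500 bp centred on the TSS one of 0.838. The ratio was the lower under H3K4me3 in 197 of 270 windows with both values (73.0%). In windows with the TSS under the mark the medians were 0.720 and 0.783, with the ratio the lower in 74.2%, and in cAPs 0.675 and 0.848, with 89.3%.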
